A study of Mus musculus with 15 samples.

Results

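The transcripts described here encode secreted glycoproteins of the extracellular matrix and the lysyl oxidases that cross-link its collagen and elastin. The genes were taken by name: Fn1, Tnc, Sparc, Thbs1, Thbs2, Postn, Lox, Loxl1 and Loxl2. The arrays gave values for 8 of these 9 genes, out of 19938 genes with a probe set that carries a single name, and each of the 8 had 1 probe set. The only probe set for Loxl2 also carries the name Gm21451, so Loxl2 was not analysed here. The tissue was gonadal white fat, which in males lies along the epididymis and testis. It came from male C57BL6/J mice, 7 wild type and 8 Sfrp5 KO, whose allele is given as Q27Stop. Sfrp5 is a secreted antagonist of Wnt signalling. All mice of both genotypes were fed a high-fat diet for 8 weeks, from 4 weeks of age, and were 12 weeks old at collection, so the data hold no mice on a control diet. The labels name each array a biological replicate, and the labels' tissue is whole fat, so fewer cells of a type and less RNA per cell cannot be told apart in any value below.

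Fibronectin, the product of Fn1, forms fibrils on which collagens and other matrix proteins assemble. SPARC, periostin (Postn), tenascin C (Tnc) and the thrombospondins (Thbs1 and Thbs2) are matricellular proteins, which bind matrix and cell-surface receptors and change how cells meet the matrix more than they bear load. Lysyl oxidase (Lox) and its relative Loxl1 oxidise lysines in collagen and elastin, the step from which covalent cross-links form. In adipose tissue fibroblast-like progenitor cells and other stromal cells are among the sources of these proteins, and matrix builds up around adipocytes as fat pads grow in obesity.

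Promoter sequences were available for 4 of the 8 genes, and 1 is printed for each, since over the 15 mice the correlations of Sparc, Postn and Tnc with each other passed the test used below, and those of Thbs2 with them did not. The sequences are the 250 bases before a RefSeq transcription start in the mouse build GRCm38.p6, written 5′ to 3′ on the gene's strand. The intervals are chr3:54360857-54361106 on the plus strand for Postn, and chr11:55420081-55420330 for Sparc, chr4:64046937-64047186 for Tnc and chr17:14694263-14694512 for Thbs2, all on the minus strand. For Postn and Tnc, which have 2 listed starts each, the start farther along the gene was used. Capitals mark matches on either strand to 5 short motifs. These were the TATA box, searched as TATAAA, and the CCAAT box, searched as those letters. The site of AP-1 was searched as TGANTCA, that of the TEAD factors as CATTCC, and that of Sp1 as GGGCGG.
Postn: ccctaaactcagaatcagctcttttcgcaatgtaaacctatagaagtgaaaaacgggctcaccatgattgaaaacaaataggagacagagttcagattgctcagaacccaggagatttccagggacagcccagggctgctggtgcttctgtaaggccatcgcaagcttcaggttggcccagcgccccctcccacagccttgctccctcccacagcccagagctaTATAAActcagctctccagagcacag
Sparc: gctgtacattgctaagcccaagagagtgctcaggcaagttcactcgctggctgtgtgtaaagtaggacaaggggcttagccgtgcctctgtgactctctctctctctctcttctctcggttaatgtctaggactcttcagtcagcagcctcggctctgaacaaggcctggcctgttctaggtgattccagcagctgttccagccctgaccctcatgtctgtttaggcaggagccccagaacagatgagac
Tnc: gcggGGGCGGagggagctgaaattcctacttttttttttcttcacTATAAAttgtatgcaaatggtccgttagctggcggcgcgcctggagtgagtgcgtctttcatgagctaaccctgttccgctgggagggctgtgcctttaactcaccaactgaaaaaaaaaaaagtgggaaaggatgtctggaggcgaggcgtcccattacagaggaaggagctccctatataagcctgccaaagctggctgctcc
Thbs2: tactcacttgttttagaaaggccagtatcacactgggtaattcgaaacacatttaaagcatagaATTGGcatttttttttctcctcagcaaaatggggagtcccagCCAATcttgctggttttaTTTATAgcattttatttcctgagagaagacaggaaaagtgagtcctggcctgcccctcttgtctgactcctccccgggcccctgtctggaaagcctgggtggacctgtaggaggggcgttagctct
Postn held TATAAA 26 bases before its start. In Tnc, TATAAA lay 205 bases and GGGCGG 246 bases before the start. The similar run tatataag lies nearer the Tnc start, but it does not match TATAAA and is not marked. In Thbs2, TATAAA lay 126 bases before the start and CCAAT 186 and 144 bases before it, the first CCAAT and the TATAAA being on the other strand. The Sparc window held none of these 5 motifs, and none of the matches overlapped another. Among 32851 mouse promoters of the same length, 12.4% held TATAAA, 33.8% CCAAT, 6.75% TGANTCA, 12.6% CATTCC and 32.7% GGGCGG, so these matches are common and are given as descriptions only.

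The array medians lay between 6.99 and 7.07 on the log2 scale, and each pair of arrays correlated at between 0.963 and 0.987. Sfrp5 itself was lower in every knockout mouse (6.02 to 7.12) than in every wild-type mouse (7.66 to 8.33), a difference of -1.23 (SE 0.16, limma adjusted p = 0.0200, exact permutation p = 0.000155). Across all probe sets, 12 of 35557 differed between genotypes at a limma adjusted p under 0.05, which is 0.0337%, and 9.97% had an unadjusted p under 0.05. Leaving out wild-type mouse 2, 3, 4 or 5 or knockout mouse 2, 5 or 8 alone took the number of these probe sets to 0 and the limma adjusted p of Sfrp5 to between 0.0501 and 0.067, and leaving out knockout mouse 1 took the number to 133. The mean of 10 adipocyte genes lay between 11.57 and 11.91 in all 15 arrays, so the tissue carried its labelled markers throughout. Genes of the epididymis and testis, 11 in all, averaged 10.40 in knockout mouse 2 and 7.95 in wild-type mouse 4, against 5.93 to 7.03 in the others. The mean of 12 macrophage genes was 9.81 in knockout mouse 8 and 9.33 in wild-type mouse 2, against 8.42 to 9.05 in the others. The results below are therefore given with and without these mice where they matter. The arrays are numbered with the wild type first, so their order and the genotype cannot be told apart.

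None of the 8 transcripts differed between the genotypes past the adjusted threshold, and the wild-type and knockout values of each overlapped. The means of 4 were higher in the knockout mice and those of 4 lower, with a median difference of 0.00 on the log2 scale, and 1 had an unadjusted p under 0.05. For comparison, 44.8% of all named genes had the higher mean in the knockout, their median difference was -0.01, and 6.69% had an unadjusted p under 0.05. The lowest value of Fn1, Sparc, Postn, Loxl1, Thbs1 and Thbs2 was that of knockout mouse 2, and the lowest of Tnc and Lox that of knockout mouse 4.

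**Figure D1:**
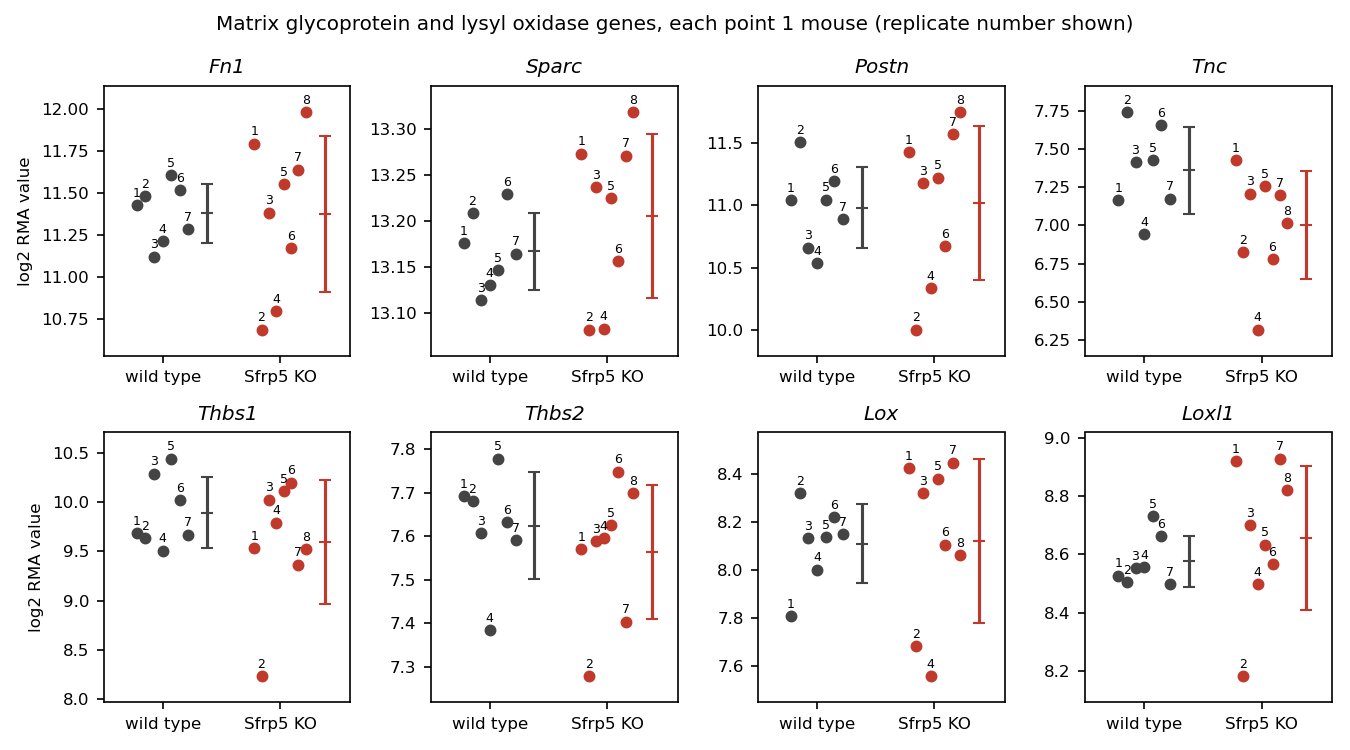
Level of each transcript in each mouse, as deposited log2 values, for 7 wild-type and 8 Sfrp5 KO mice, with the group mean and SD. The genotypes overlap for every gene, and the knockout points are spread more widely than the wild-type points.

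Fn1 ranged from 11.12 to 11.61 in the wild type, with a median of 11.43, and from 10.69 to 11.98 in the knockout, with a median of 11.47. The knockout mice thus held both the lowest Fn1 values (mice 2 and 4, at 10.69 and 10.80) and the highest (mouse 8). The group means were 11.38 ± 0.18 (SD, n = 7) and 11.38 ± 0.46 (SD, n = 8). The genotype difference had a 95% interval of -0.37 to 0.36 (limma adjusted p = 0.997).

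Sparc varied least of all. Its values ran from 13.11 to 13.23 in the wild type (median 13.16) and from 13.08 to 13.32 in the knockout (median 13.23), a range of 0.24 over all 15 mice. These values lie near the top of the deposited scale, which reached 14.26. The difference was 0.04 (SE 0.05, limma adjusted p = 0.859). Postn, whose product binds collagen and integrins, varied far more on the same scale. In the wild type it ran from 10.54 to 11.50 (median 11.04), and in the knockout from 10.00 to 11.74 (median 11.20), a 3.34-fold range. As for Fn1 and Sparc, the extremes on both sides were knockout mice, with mice 2 and 4 at the bottom and mouse 8 at the top. The mean difference in Postn was 0.04 (SE 0.24, limma adjusted p = 0.977), with an interval of -0.47 to 0.55.

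Tnc, which encodes a large hexameric glycoprotein best known from wounds and developing tissue, had the largest difference of the 8 when all mice were used. It ranged from 6.94 to 7.74 in the wild type (median 7.41) and from 6.32 to 7.43 in the knockout (median 7.11). In 7 of 8 knockout mice it was below the wild-type mean, and mouse 1 alone lay above it. The means were 7.36 ± 0.28 (SD, n = 7) and 7.003 ± 0.35 (SD, n = 8), a difference of -0.36 (SE 0.16), or 1.28-fold. Its exact permutation p was 0.0493 and its unadjusted limma p 0.0377, and the limma adjusted p was 0.469. The difference did not pass the threshold, and leaving out each mouse in turn gave differences between -0.43 and -0.26, the smallest without knockout mouse 4. The difference of Thbs1 was larger than that of Tnc in 3 of these fits, and also without knockout mouse 8 and wild-type mouse 2, at -0.33 against -0.29. With knockout mice 7 and 8 as the only knockouts Tnc differed by -0.25, and Postn (0.68), Thbs1 (-0.45), Fn1 (0.43) and Loxl1 (0.30) by more.

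Thbs1 encodes a trimeric protein that activates latent TGF-beta and inhibits vessel growth. It had the widest range, 4.64-fold over the 15 mice. The wild-type values ran from 9.51 to 10.44 (median 9.69) and the knockout values from 8.23 to 10.20 (median 9.66). Knockout mouse 2, at 8.23, stood apart from the next lowest knockout mouse, at 9.37. The difference was -0.30 (SE 0.25, limma adjusted p = 0.773) with that mouse and -0.10 without it. Thbs2, a close relative without the TGF-beta activating sequence, ran from 7.38 to 7.78 in the wild type (median 7.63) and from 7.28 to 7.75 in the knockout (median 7.59). As for Thbs1 and Postn, its lowest values in the respective groups were those of wild-type mouse 4 and knockout mouse 2. These are the mice with the highest epididymis and testis markers. Its difference was -0.06 (SE 0.07, limma adjusted p = 0.858), or -0.02 without knockout mouse 2.

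Of the cross-linking enzymes, Lox ran from 7.81 to 8.32 in the wild type (median 8.14) and from 7.56 to 8.45 in the knockout (median 8.21). Knockout mice 4 and 2, at 7.56 and 7.68, were below every wild-type mouse, and mice 7, 1 and 5, at 8.45, 8.42 and 8.38, were above them all. The Lox difference was 0.01 (SE 0.13, limma adjusted p = 0.986). Loxl1, which acts mainly on elastin, ran from 8.50 to 8.73 in the wild type (median 8.55) and from 8.18 to 8.93 in the knockout (median 8.67). Knockout mice 7, 1 and 8, at 8.93, 8.92 and 8.82, exceeded every wild-type mouse, and mice 2 and 4, at 8.18 and 8.497, were below them all. The difference was 0.08 (SE 0.10, limma adjusted p = 0.854), and 0.15 without knockout mouse 2.

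**Figure D2:**
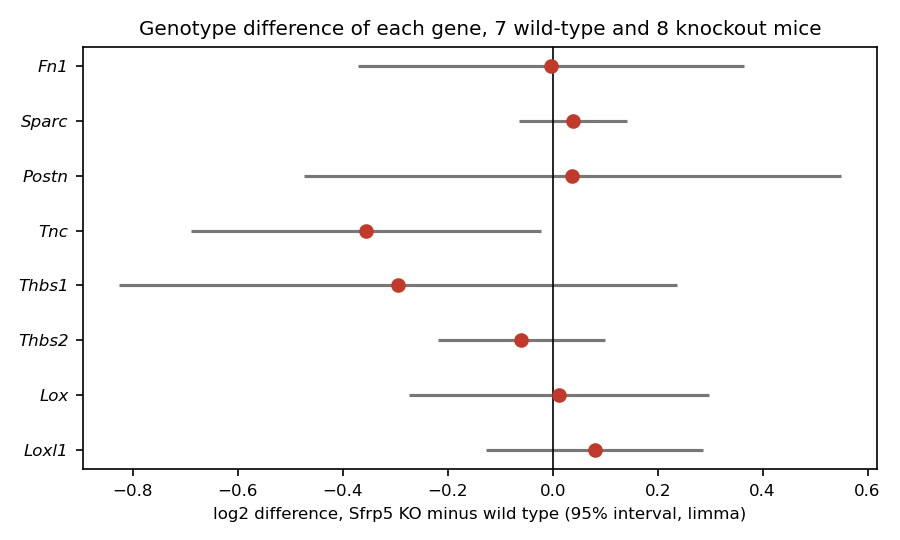
Difference of each transcript between genotypes (Sfrp5 KO minus wild type, log2), with its 95% interval from limma. Every interval but that of Tnc (-0.69 to -0.02) spans 0, and no difference passed the threshold after adjustment over all probe sets.

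The SD among knockout mice was greater than that among wild-type mice for all 8 transcripts, from 1.24 times for Tnc to 2.63 times for Fn1 and 2.83 times for Loxl1. The median ratio was 1.99. Over all named genes the knockout SD was the greater in 54.4%, with a median ratio of 1.05. Knockout mouse 2 contributed to this count, since without it the knockout SD was the greater for 6 of the 8 transcripts, against 50.3% of named genes. Without that mouse the knockout SD of Fn1 was 0.40 and that of Postn 0.50, against 0.18 and 0.32 in the wild type. The knockout SD of Thbs1 moved from 0.63 to 0.33 and was then below the wild-type SD of 0.36. These transcripts varied together from mouse to mouse, so the 8 ratios are not independent, and the difference in spread was not tested.

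The transcripts were next compared for how they varied from mouse to mouse, using each mouse's deviation from its own genotype mean. All 28 pairs had a Pearson r above 0 over the 15 mice, with a median of 0.678, and 15 pairs passed an adjusted p of 0.05 in a permutation test within genotypes. Spearman's rho was below 0 for Sparc with Thbs1 (-0.0786), Thbs2 with Lox (-0.0607) and Thbs1 with Postn (-0.00357), and 0 for Tnc with Thbs2. The closest pairs were Sparc and Postn (r = 0.960, Spearman rho = 0.954), Fn1 and Postn (r = 0.942, rho = 0.907), and Fn1 and Sparc (r = 0.938, rho = 0.896). Their permutation p-values adjusted over the 28 pairs were 0.00014, 0.00014 and 0.000373 for r, and 0.00056, 0.00056 and 0.00149 for rho. The first 2 p-values for r rest on the smallest p that the 100000 permutations can give, 1e-05. Leaving out the 2 mice farthest from the median of 1 gene of the pair, here knockout mice 2 and 4, left r at 0.918, 0.856 and 0.838. The gene used was the one that comes first in the list of genes at the start, so these mice differ between pairs. Without the mice of highest epididymis markers, wild-type mouse 4 and knockout mouse 2, r was 0.956, 0.921 and 0.912. Within the knockout mice alone r was 0.986, 0.978 and 0.984. Within the wild type it was 0.841, 0.770 and 0.652, with unadjusted exact permutation p-values of 0.0196, 0.0435 and 0.118. Adjusted over the 28 pairs, these exact permutation p-values were 0.277, 0.277 and 0.402.

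**Figure D3:**
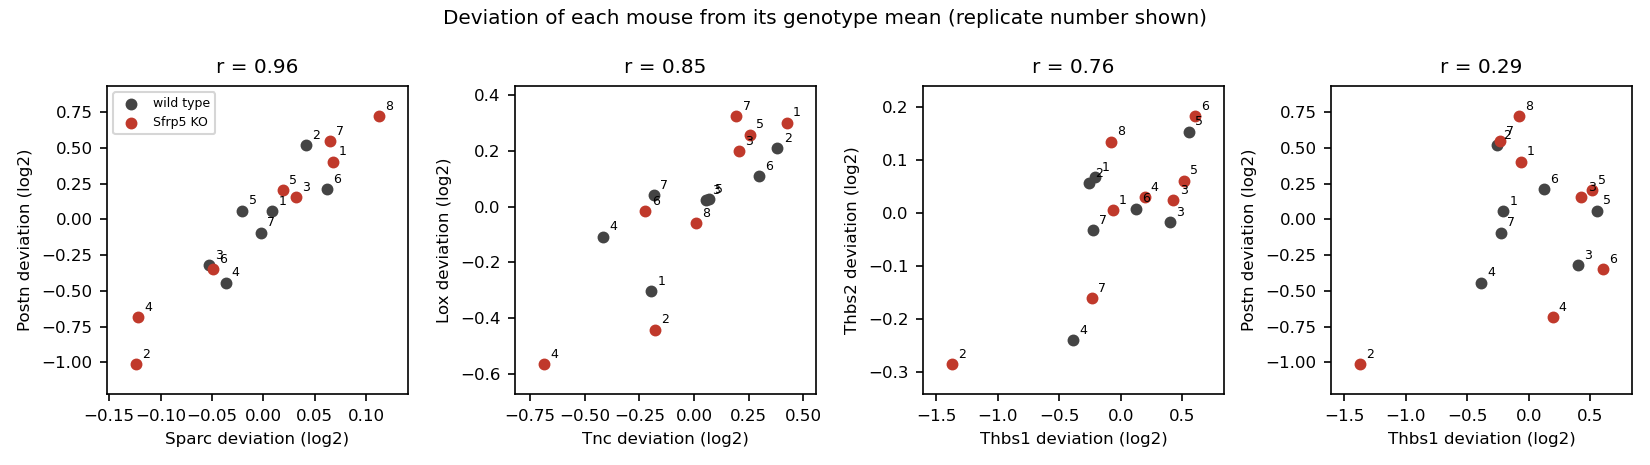
Deviation of each mouse from its genotype mean (log2) for selected pairs of transcripts, with wild-type and knockout mice marked separately. The r of Sparc with Postn is 0.841 within the wild type and 0.986 within the knockout. The r of Thbs1 with Postn over all 15 mice is 0.288.

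Tnc and Lox formed a second close pair, with r = 0.846 (permutation p adjusted over the 28 pairs = 0.00105) and rho = 0.836 (adjusted p = 0.00182). Within the wild type its r was 0.756, with an exact permutation p of 0.044 before adjustment over the 28 pairs and 0.277 after. Within the knockout r was 0.905, with an exact permutation p of 0.00169 before adjustment and 0.00764 after. It was 0.913 without wild-type mouse 4 and knockout mouse 2. Without the 2 mice farthest from the median of Tnc, wild-type mouse 4 and knockout mouse 4, it was 0.789. Loxl1 correlated with Fn1 at 0.859 (adjusted permutation p = 0.00263, rho = 0.850), with Postn at 0.804 (adjusted permutation p = 0.00664, rho = 0.750) and with Sparc at 0.781 (adjusted permutation p = 0.0112, rho = 0.771). Within the wild type, where Loxl1 varied little, the last 2 were 0.067 and 0.0454, and within the knockout they were 0.930 and 0.888. Lox and Loxl1 correlated at 0.692 with each other (adjusted permutation p = 0.0373) and with Spearman's rho at 0.596 (adjusted permutation p = 0.0899). Without the 2 mice farthest from the median of Lox, knockout mice 2 and 4, their r was 0.314.

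The pairs that joined a thrombospondin to another transcript had lower r over the 15 mice. Drawn up after the correlations were seen, a split into Thbs1 and Thbs2 on one side and the other 6 transcripts on the other gave 14 of 15 pairs past the threshold among the 6 by Pearson's r and 12 of 15 by Spearman's rho. Tnc with Loxl1 passed by neither (r = 0.53, adjusted permutation p = 0.124), and Fn1 with Lox (adjusted permutation p = 0.068) and Lox with Loxl1 did not pass by rho. None of the 12 pairs between a thrombospondin and one of the 6 passed by either coefficient, with r from 0.165 to 0.476. Thbs1 and Thbs2 correlated with each other at 0.761 (adjusted permutation p = 0.00664, rho = 0.664, adjusted p for rho = 0.0251). That value rested in part on knockout mouse 2: without it r was 0.582, and without it and wild-type mouse 4 it was 0.499 (adjusted permutation p = 0.146). With both mice left out, 11 of the 12 correlations between a thrombospondin and the other transcripts were below 0, down to -0.515 for Thbs1 with Postn, and 0 of the 12 passed. Within the wild type the division was not seen in this form: the r of Thbs1 with Loxl1 was 0.741, and that of Thbs2 was 0.715 with Fn1, 0.669 with Postn and 0.603 with Tnc. The 12 pairs between the sides then had a median r of 0.360 and the 15 pairs among the 6 a median of 0.53. The difference between the sides was not tested.

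**Figure D4:**
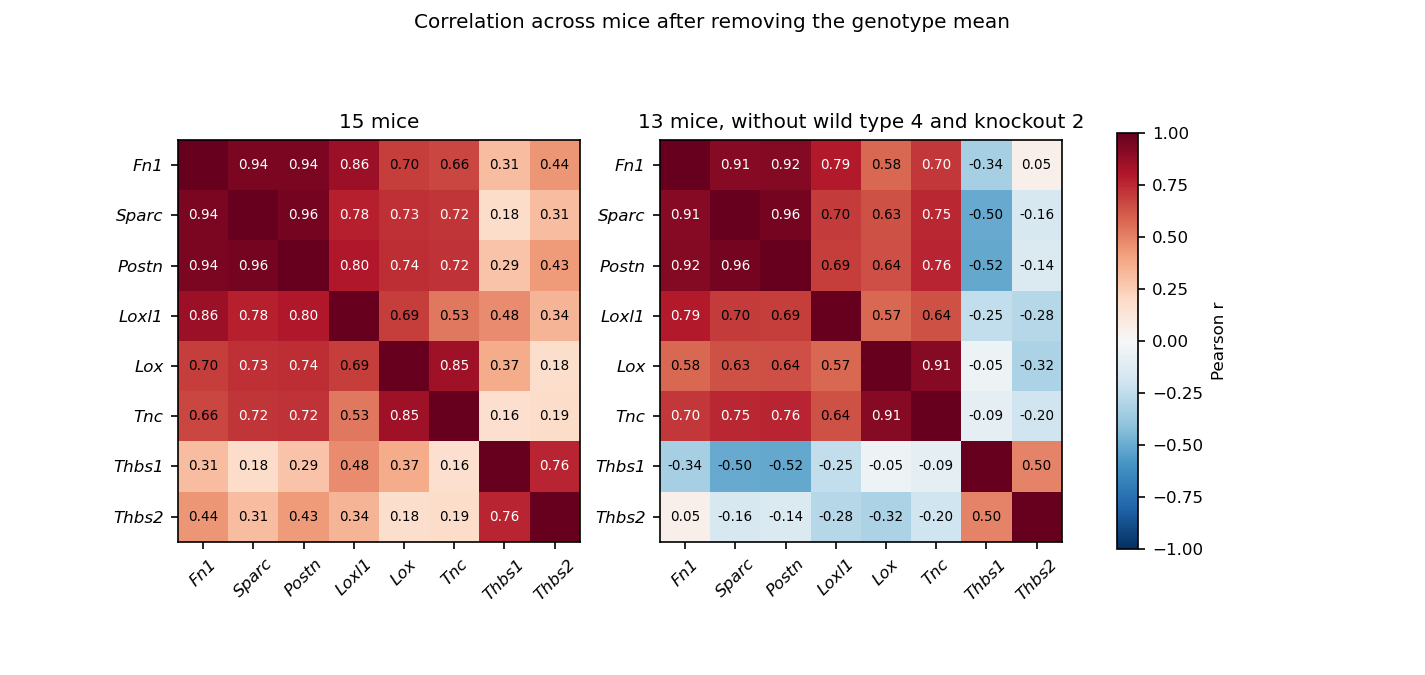
Pearson r of the deviations from genotype means for each pair of the 8 transcripts over 15 mice. The block of Fn1, Sparc, Postn, Tnc, Lox and Loxl1 runs from 0.53 to 0.960, and its pairs with Thbs1 and Thbs2 run from 0.165 to 0.476.

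How many pairs passed by Pearson's r depended on which mice were used. Within the wild type alone, with 7 mice, 0 of 28 pairs passed after adjustment, while within the 8 knockout mice 12 did. Among the 6 transcripts, 7 of 15 pairs passed without wild-type mouse 4 and knockout mouse 2. Without knockout mouse 2 or without knockout mouse 4 alone, 8 of 15 passed. Only 4 pairs passed when the 2 mice farthest from the median of its first gene were left out for each pair. These were Sparc with Postn, Fn1 with Postn, Fn1 with Sparc, and Tnc with Lox. Leaving out the mice of highest macrophage markers, knockout mouse 8 and wild-type mouse 2, left 14 of 15. Whether the correlations differ between the genotypes was not tested.

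Many other transcripts varied with these. The share of the other named genes with an r of at least 0.7 was 6.11% for Fn1, 6.17% for Sparc and 6.76% for Postn. It was 1.37% for Tnc, 0.803% for Lox, 1.65% for Loxl1, 1.56% for Thbs1 and 1.97% for Thbs2. Of the other 7 transcripts of the set, 5 reached that r with Sparc and with Postn, 3 each with Fn1, Tnc, Lox and Loxl1, and 1 each with Thbs1 and Thbs2. Without wild-type mouse 4 and knockout mouse 2 these counts were 3 for Sparc and Postn, 4 for Fn1 and Tnc, 1 for Lox and Loxl1, and 0 for the thrombospondins. The shares of named genes were then 5.13% for Fn1, 5.28% for Sparc, 5.57% for Postn, 1.44% for Tnc, 0.441% for Lox, 0.677% for Loxl1, 1.36% for Thbs1 and 0.532% for Thbs2. The counts are given as descriptions, since the genes of a tissue share its cell composition.

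The genes most like each transcript across the 15 mice were named by their Pearson r. For Fn1 they were Hspb1, a small heat shock protein (r = 0.973), the membrane glycoprotein gene Gpm6b (0.969), and Pcolce2, an enhancer of procollagen C-proteinase (0.948). Sparc was closest to Col12a1, a fibril-associated collagen (0.964), to Postn, and to Hspb1 (0.959). Postn was closest to Mtarc1, a mitochondrial reductase (0.976), Serpinf1, which encodes pigment epithelium-derived factor (0.971), and Ptchd4 (0.971). Tnc was closest to AA467197 (0.955), to Ufm1, a ubiquitin-like modifier (0.867), and to Mmgt1 (0.856). The nearest genes to Lox were Crtac1, a cartilage matrix protein (0.868), Mageb18 (0.857) and Unc79 (0.853). Loxl1 was closest to the matrix genes Ecm1 (0.940) and Col14a1, a fibril-associated collagen (0.927), with Fam174c (0.931) between them. Thbs1 was closest to Tmem140 (0.924), Acer2, a ceramidase (0.918), and Itih5, an inhibitor heavy chain that binds hyaluronan (0.889). Thbs2 was closest to Cgnl1, a protein of cell junctions (0.930), the cation channel gene Trpv2 (0.898) and Tmem65 (0.890). Without wild-type mouse 4 and knockout mouse 2 these r values lay between 0.70, for Thbs2 with Trpv2, and 0.969, for Fn1 with Gpm6b. The neighbours of Postn then had r from 0.952 to 0.959, and those of Thbs2 from 0.70 to 0.818.

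Each transcript was also set against the mean of 18 lists of genes, of which 7 were matrix lists and 11 were markers of cell types. Of these 144 correlations 29 had a permutation p adjusted over the 144 under 0.05. Fn1, Postn and Sparc varied with the collagens, with r of 0.959, 0.936 and 0.934 to the mean of 10 fibrillar and associated collagens (rho 0.921, 0.936 and 0.950, adjusted permutation p = 0.000206 for each r). Without the 2 mice farthest from the median of the list mean these were 0.920, 0.888 and 0.883. The same 3 followed 14 genes for collagen and pro-lysyl oxidase processing at 0.90, 0.940 and 0.924 (rho 0.850, 0.907 and 0.921). The highest r of Loxl1 were with 11 markers of adipose progenitors and fibroblasts (r = 0.930, rho = 0.90, adjusted permutation p = 0.0013) and with 14 elastic fibre and microfibril genes (r = 0.917, rho = 0.829, adjusted permutation p = 0.0013). The marker Mfap5 is in both of these lists. The progenitor and fibroblast markers also passed with Fn1 (r = 0.911, adjusted permutation p = 0.0013), Sparc (r = 0.827, adjusted permutation p = 0.00826) and Postn (r = 0.825, adjusted permutation p = 0.00736). Within the wild type the progenitor and fibroblast markers gave 0.830 for Loxl1 and 0.810 for Fn1, and 0.231 for Sparc and 0.312 for Postn.

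The markers of other cells moved with some of these transcripts too. Macrophage markers correlated with Postn at 0.849, with Sparc at 0.811 and with Fn1 at 0.810 (adjusted permutation p of 0.0017, 0.0018 and 0.00278). Without knockout mouse 8 and wild-type mouse 2, whose macrophage means stood apart, these were 0.948, 0.899 and 0.936. In the same setting the r of Loxl1 with these markers was 0.916 (0.574 over all mice), that of Lox 0.862 (0.454) and that of Tnc 0.761 (0.502). Within the wild type the macrophage r was 0.847 for Postn, 0.577 for Sparc and 0.490 for Fn1. For Lox, Tnc and Loxl1 it was 0.708, 0.731 and -0.137. Without wild-type mouse 4 and knockout mouse 2 the values were, in the same order, 0.831, 0.764, 0.768, 0.313, 0.453 and 0.455. Endothelial markers passed by Pearson's r with 7 of the 8 transcripts, up to 0.801 for Postn (adjusted permutation p = 0.000206), the exception being Thbs1 at 0.525. Loxl1 (rho = 0.529, adjusted permutation p = 0.113) and Thbs2 (rho = 0.429, adjusted permutation p = 0.234) did not pass by Spearman's rho, nor did Thbs1. For Thbs2 the endothelial r of 0.712 was 0.134 without wild-type mouse 4 and knockout mouse 2. Epididymis and testis markers gave r below 0 with all 8 transcripts, from -0.779 for Loxl1 (adjusted permutation p = 0.0376), the only value of the 8 to pass, to -0.267 for Tnc. Loxl1 did not pass with them by rho (rho = -0.607, adjusted permutation p = 0.113). Without the same 2 mice the r of 4 of the 8 was above 0, namely Thbs1 (0.384), Thbs2 (0.322), Lox (0.164) and Tnc (0.069). The others were then -0.589 for Loxl1, -0.325 for Fn1, -0.197 for Postn and -0.148 for Sparc. Adipocyte markers gave r from 0.417 to 0.614, and 0 of 8 passed. By Pearson's r over all mice Lox and Tnc passed with the endothelial list alone, at 0.635 and 0.743, and Thbs1 with no list. By Spearman's rho Tnc also passed with the macrophage list (rho = 0.686, adjusted permutation p = 0.0454). So did Thbs2 with the smooth muscle and pericyte list (rho = -0.779, adjusted permutation p = 0.0111), where Pearson's r was -0.656 (adjusted permutation p = 0.0517). Without wild-type mouse 4 and knockout mouse 2 that r was -0.772. The part of cell composition in these correlations was not tested.

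**Figure D5:**
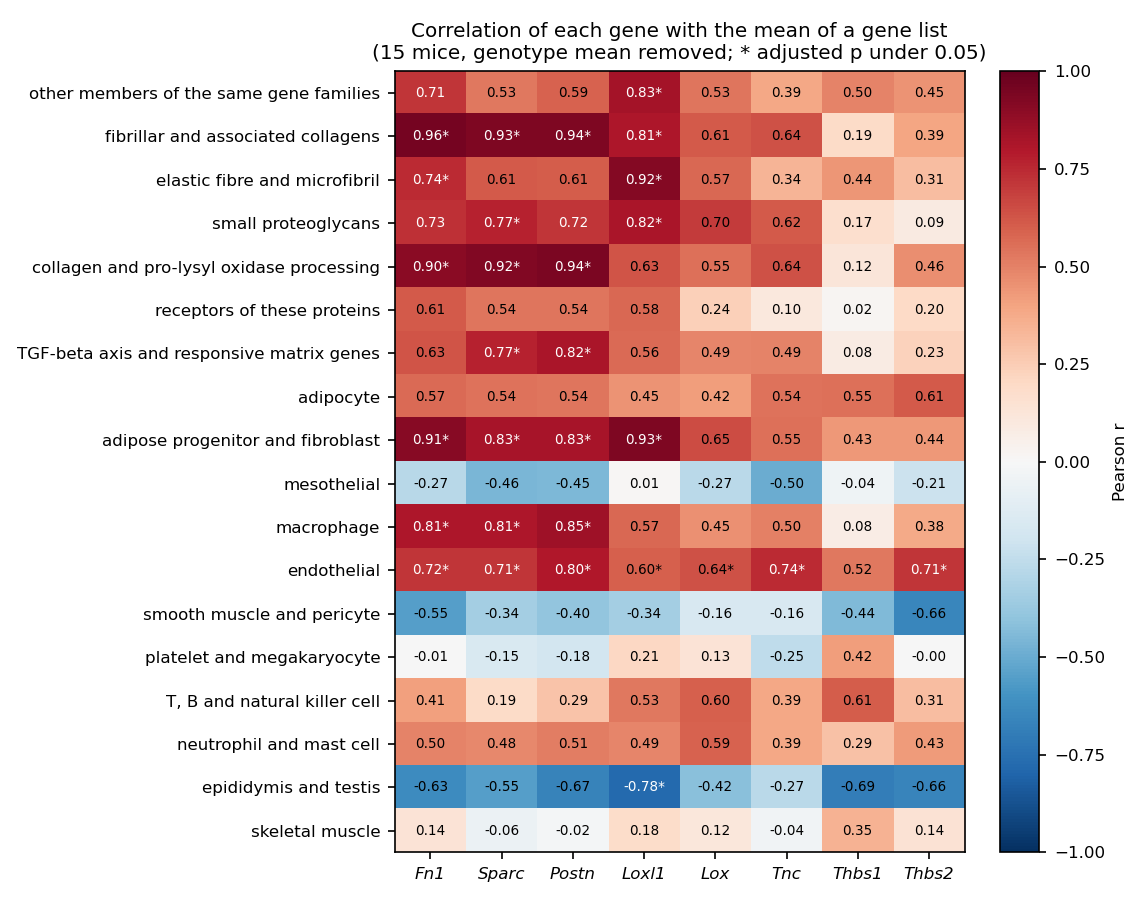
Pearson r between the deviation of each transcript and that of the mean of each gene list over 15 mice. Fn1, Sparc and Postn have values from 0.90 to 0.959 at the collagen and collagen processing lists, and at the progenitor and fibroblast list Loxl1 has 0.930, Fn1 0.911, Sparc 0.827 and Postn 0.825.

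The other genes of the matrix and of its receptors were compared between the genotypes in the same fit. Of 91 measured genes 0 passed the adjusted limma threshold, 52 were higher and 39 lower in the knockout, and 4 had an unadjusted p under 0.05, which is 4.40%. Among 16 relatives of these glycoproteins and lysyl oxidases, 10 were higher, with a median difference of 0.03. The lowest p was that of Tnn, tenascin N, at -0.18 (SE 0.07, limma adjusted p = 0.435), followed by the testican genes Spock1 (0.12) and Spock2 (0.13). Of the relatives with the highest values on these arrays, Sparcl1, Fstl1 and Smoc1, the differences were -0.09, -0.03 and -0.12. Among 10 collagens 2 were higher and 8 lower, all by small amounts, with a median of -0.02. Col12a1 differed by -0.14, Col1a1 by 0.06 and Col14a1 by -0.06.

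Of 14 elastic fibre and microfibril genes 9 were higher, with a median of 0.05. The latent TGF-beta binding protein gene Ltbp2 differed by -0.14 (SE 0.05, limma adjusted p = 0.384) and was below the wild-type mean in 8 of 8 knockout mice, while Mfap4 and Efemp1 differed by 0.23 and 0.14. Of 8 proteoglycans, small ones and the large versican (Vcan), 7 were higher, with a median of 0.15. Decorin (Dcn), which binds collagen fibrils and TGF-beta, had the lowest adjusted p of the 91 genes, with a difference of 0.15 (SE 0.06, limma adjusted p = 0.353) and 8 of 8 knockout mice above the wild-type mean. Its relatives fibromodulin (Fmod) and lumican (Lum) differed by 0.37 and 0.20. Of 14 processing genes 7 were higher, among them Pcolce, which speeds the trimming of procollagen, at 0.23 (SE 0.10, limma adjusted p = 0.474). The prolyl hydroxylase subunit genes P4hb and P4ha1 differed by -0.14 and -0.13. Of 16 receptor genes 11 were higher (median 0.05), including the thrombospondin receptors Cd36 (0.08) and Cd47 (0.07) and the integrin gene Itgav (0.14). A list of 13 genes held those of the TGF-beta axis, genes responsive to it, and Hif1a. Of these 6 were higher (median -0.00), with Acta2 at -0.24, and Smad2 and Tgfbr2 both at -0.05. None of these passed the threshold.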

How the data were processed

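RNA from 15 fat pads was amplified and hybridised to Affymetrix arrays, 1 array per mouse. Per the submitters' processing notes, the deposited log2 values came from RMA (background correction, quantile normalization and summary per probe set). Affymetrix Expression Console 1.1.2800.19935, affy 1.18 and limma are listed there as well, with no step named for them, and the build behind the annotation was not given in the sources used here. The number of arrays limits the precision.

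Values were used as deposited, with no further filter. Of 35557 probe sets, 21789 carried 1 gene symbol, 1621 several and 12147 none in the platform annotation, and 21698 identifiers matched RefSeq (GRCm38.p6). Genes with over 1 probe set (999) were represented by the brightest. Genotypes were compared with limma 3.58.1 (R 4.3.3), all probe sets in 1 fit with no covariates, and Benjamini-Hochberg adjustment over all of them. Each transcript was also tested by an exact two-sided permutation test over 6435 assignments. Correlations used deviations from genotype means, with 100000 two-sided permutations within genotypes (exact within 1 genotype) in Python 3.11.15, adjusted over 28 pairs or 144 transcript-list pairs. The statistics scripts were tested on simulated data. The genes, lists and tests were chosen with earlier results of these data known. Genes named beside the 8 are Sfrp5, the 3 of lowest unadjusted p in each matrix list, the 3 relatives of highest mean level, and the 3 of highest r to each transcript. Also named are 4 mesothelial markers, picked for an unadjusted limma p under 0.05, and Mfap5, Vcan and Hif1a, for their place in the lists. Alternatives covered normalization, dim probe sets, the variance model, array weights, the replicate block and leaving out arrays.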

Additional observations from a re-analysis of the deposited data

Results flagged for a closer look

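Of 54 groups of values checked for an array far from the rest of its genotype, 8 held one, where chance gives about 1 in 20. Thbs1 in knockout mouse 2 was 8.23, against 9.37 in the nearest knockout mouse. The same mouse had an epididymis and testis list mean of 10.4 (nearest 7.03), and wild-type mouse 4 had 7.95 (nearest 6.66). The macrophage list mean was 9.81 in knockout mouse 8 (nearest 9.05) and 9.33 in wild-type mouse 2 (nearest 8.85). The endothelial list mean was 8.97 in wild-type mouse 4 (nearest 9.32). In wild-type mouse 5 the mean of the relatives of these genes was 7.78 (nearest 7.70), and that of T, B and natural killer cell markers was 6.62 (nearest 6.46).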

How the results depend on the processing

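The number of probe sets that differed between genotypes was 12 as reported, 6 after quantile normalization, 7 after median centring, 25 with array weights, 26 without dim probe sets and 48 with a robust prior that follows intensity. The number was 2 without knockout mice 7 and 8, and 0 in limma without wild-type mouse 4 and knockout mouse 2 (2963 at an unadjusted p under 0.05), without knockout mouse 8 and wild-type mouse 2 (3034), with mice 7 and 8 as the only knockouts (3392), and with the replicate block (3098, knockout mouse 8 left out). Leaving out each mouse in turn gave 0 to 133, the highest without knockout mouse 1, 32 without wild-type mouse 6, and 0 without any of wild-type mice 2 to 5 or knockout mice 2, 5 and 8. In these fits without 1 mouse the limma adjusted p of Sfrp5 was between 0.00413 and 0.067, and it was 0.119 without wild-type mouse 4 and knockout mouse 2, and 0.3 with the block. Mice that share a replicate number did not all deviate together (r from -0.25 to 0.44 over 19938 genes), so the numbers were not taken to pair them. The transcripts higher in the knockout numbered 4, or 2 after quantile normalization or without knockout mice 7 and 8, and 2 to 5 with each mouse left out. Signs of small differences turned: Sparc to -0.025 and Postn to -0.0129 after quantile normalization, Fn1 to 0.0082 with array weights, 0.068 without wild-type mouse 4 and knockout mouse 2 and 0.43 with mice 7 and 8 as the only knockouts, Postn to -0.18 and Lox to -0.032 without those 2, and Postn to -0.066 with the replicate block. With each mouse left out Fn1 ran from -0.090 to 0.095, Postn from -0.066 to 0.18 and Lox from -0.038 to 0.093. No difference of the 8 transcripts passed the adjusted threshold in any of these settings.

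By Pearson's r 15 of the 28 pairs passed, also after quantile normalization. This count was 0 within the wild type, 7 without wild-type mouse 4 and knockout mouse 2, and 4 without the 2 farthest mice. With each mouse left out it was 8 to 15 (8 without knockout mouse 2, 9 without knockout mouse 4). By Spearman's rho fewer passed. Among the 6 transcripts, 12 of 15 pairs passed by rho over all mice and 8 after quantile normalization. Within the knockout 6 did, and without knockout mouse 2 only 5. Thbs1 with Thbs2 passed by rho over all mice, but not in these other settings. Correlations with Thbs1 turned to -0.25 (Sparc) and -0.032 (Postn) within the wild type, and that of Tnc with Thbs2 to -0.045 within the knockout. Without wild-type mouse 4 and knockout mouse 2, Thbs1 gave -0.34 with Fn1, -0.089 with Tnc, -0.50 with Sparc, -0.52 with Postn, -0.050 with Lox and -0.25 with Loxl1, and Thbs2 gave -0.20 with Tnc, -0.16 with Sparc, -0.14 with Postn, -0.32 with Lox and -0.28 with Loxl1. Without the 2 farthest mice Thbs1 gave -0.35 with Fn1, -0.55 with Sparc, -0.24 with Postn and -0.095 with Loxl1, and Thbs2 gave -0.032, -0.14, -0.32 and -0.28 with Sparc, Postn, Lox and Loxl1. With each mouse left out, the pairs whose sign turned ran from -0.25 to 0.41 (Fn1 and Thbs1), -0.015 to 0.29 (Tnc and Thbs2), -0.40 to 0.28 (Sparc and Thbs1), -0.0056 to 0.44 (Sparc and Thbs2), -0.34 to 0.39 (Thbs1 and Postn), -0.22 to 0.59 (Thbs1 and Loxl1), -0.16 to 0.34 (Thbs2 and Lox) and -0.19 to 0.57 (Thbs2 and Loxl1). The causes of these changes were not tested.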

Other observations

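All 12 mesothelial markers, genes of the cell layer that covers the fat pad, had higher means in the knockout, with a median difference of 0.35, where 44.8% of named genes were higher. The list mean was 7.99 ± 0.46 (SD, n = 7) in the wild type and 8.35 ± 0.27 (SD, n = 8) in the knockout, with overlapping ranges of 7.38 to 8.63 and 7.92 to 8.64 and an exact permutation p of 0.0831. The list means of proteoglycans and of platelet and megakaryocyte markers had lower exact permutation p, at 0.0716 and 0.0824. Markers of 1 cell layer can vary together, so the 12 are not independent results. Upk1b (0.54), Krt19 (0.66), Muc16 (0.65) and Upk3b (0.41), named here after their values were seen, had an unadjusted p under 0.05, and none passed the limma adjusted threshold. The mesothelial list mean was highest in knockout mouse 4 (8.64), the mouse with the lowest Tnc and Lox. It was nearly as high in wild-type mouse 5 (8.63), whose Tnc and Lox lay above their wild-type means. Correlations of the list mean with the 8 matrix transcripts ran from -0.50 to 0.01, and 0 of 8 passed.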
